A study of Mus musculus with 4 samples.

Results

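Potassium, sodium and calcium channel genes were followed in RNA bound to phosphorylated ribosomes and in total RNA of the mouse hypothalamus. Members were all genes whose array symbol begins with KCN or CACN, or is HCN followed by a digit, or is SCN followed by a number and A or B. The array file holds 119 such genes (184 probes) of 17916 genes (25697 probes). Of these, 82 genes (113 probes) were detected on at least 2 arrays and could be tested, beside 10182 tested genes in all.

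The animals were C57Bl/6J mice aged 12 weeks. Salt animals received 325 uL of 2 M NaCl and control animals received the PBS vehicle. Drinking water was withdrawn from both groups, and all were killed 2 h afterwards, near circadian time 6 h. An antibody to phosphorylated ribosomal protein S6 (pS6 244/247) served for the pull-down of ribosomes (IP), and the total RNA is the input. Each group has 2 samples, and an IP and an input of every sample went on Illumina BeadArrays, 8 in all. Whether a sample holds 1 animal or several is not stated in the labels, and p-values therefore cover only the spread between these samples, which may be technical. The IP has no control without antibody among these arrays, and it collects RNA from every cell of the hypothalamus that holds phosphorylated S6. In such bulk tissue, fewer cells of a type and less RNA per cell cannot be told apart.

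Potassium channels carry the currents that repolarise neurons and hold the resting potential, HCN channels carry the hyperpolarisation-activated pacemaker current, voltage-gated sodium channels carry the upstroke of the action potential, and voltage-gated calcium channels couple firing to transmitter and hormone release. Many of the pore-forming proteins work with auxiliary subunits that set their gating or their transport to the membrane. In the hypothalamus these currents set the phasic or tonic firing of the vasopressin and oxytocin neurons that respond to plasma osmolality.

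Array medians lay between 143.3 and 161.9 intensity units, and 12259 to 13808 of the 25697 probes were detected per array. Of the 184 channel probes, 96 to 109 were detected on the IP arrays and 81 to 90 on the input arrays. Over all 25697 probes the counts were also higher on the IP arrays, 13058 to 13808 against 12259 to 12705 on the input arrays. Of the 82 tested channel genes, 57 (69.5%) were detected on all 8 arrays, against 81.6% of all tested genes. All hypothalamic neuropeptide genes that were looked up had a detected probe, and 7 of 12, Avp, Oxt, Hcrt, Pmch, Trh, Cartpt and Sst, were detected on all 8 arrays. Over channel genes, the log2 ratios of IP to input correlated at r = 0.77 between the control samples and at r = 0.56 between the salt samples, against 0.87 and 0.75 over all genes. These r values are across genes, which are not independent replicates.

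A total of 37 channel genes were not tested. Kcnk12 and Kcnk6 were detected on 1 array and the other 35 on none. Among the undetected genes were the ATP-sensitive pore gene Kcnj8, the intermediate-conductance calcium-activated channel gene Kcnn4, and the voltage-gated genes Kcnq1 and Kcnq5. The sodium channel genes Scn4a, Scn10a and Scn11a, which belong mainly to skeletal muscle and peripheral sensory neurons, were undetected too. A probe under the detection limit bounds a level and does not show that the RNA is absent.

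IP over input in control samples asked which channel mRNAs were recovered with phosphorylated ribosomes at baseline. Of the 82 channel genes, 14 were higher in the IP and 10 lower at an adjusted p under 0.05 (limma, Benjamini-Hochberg over 14199 probes). Over all 10182 genes, 19.4% were higher and 20.9% lower, against 17.1% and 12.2% of the channel genes. The median log2 ratio was 0.13 over channel genes and -0.05 over all genes. It was 0.12 and 0.15 in the control samples taken singly. Among the 14 higher genes were Cacna1b, Kcnn1, Kcna6, Kcnd3, Kcne4, Cacna1h, Kcnh2, Kcnf1, Kcna2, Kcnh7, Kcns3, Scn4b and Cacna1g, and the 10 lower genes were Kcne1l, Kcnip1, Kcnv1, Kcnu1, Kcnmb2, Hcn2, Kcna5, Kcnab1, Cacna1a and Kcnk1.

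The split of those calls moved with the scaling. With arrays scaled to a common median, 10 were higher and 19 lower, or 12.2% and 23.2% of the 82 against 14% and 34% of all genes. There the channel median was 0.023 and the median of all genes moved to -0.27. With IP and input arrays normalized apart, 21 were higher and 7 lower, or 25.6% and 8.54% against 23.2% and 18% of all genes, with medians of 0.27 and 0.02. Relative to the median of all genes, the channel median thus lay on the higher side under each of these 3 scalings. The calls also rest on both control samples. Without control replicate 1, 5 genes were higher (Cacna1b, Kcnn1, Kcna6, Kcnd3 and Kcne4) and 2 lower (Kcnu1 and Kcnv1), and without control replicate 2, 3 were higher (Cacna1b, Kcnn1 and Cacna1h) and 0 lower. Over all genes the first of these fits called 6.66% higher and 4.36% lower, and the second 5.75% and 2.54%. In these fits the control value is the remaining sample's own ratio, given below for each gene, and its spread is taken from the salt samples. Without salt replicate 1, and likewise without salt replicate 2, 25 were higher and 18 lower, against 25.2% and 28.9% of all genes.

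Of the 24 control calls, 11 were also made under every alternative that kept all samples and tested the gene. They were those of Cacna1b, Cacna1h, Kcnn1, Kcna6, Kcnd3, Kcne4, Kcnh2, Hcn2, Kcne1l, Kcnip1 and Kcnk1. Where another gene is described, the alternatives that lost its call are named with it. One of them fits the 8 arrays without pairing each IP with its input.

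Pore-forming genes and auxiliary genes were also counted apart, beside 19.4% higher and 20.9% lower over all genes. Of 54 pore-forming genes 12 were higher and 6 lower (22.2% and 11.1%), with a median of 0.19. Of 28 auxiliary genes 2 were higher and 4 lower (7.14% and 14.3%), with a median of -0.06. The difference between these groups of genes was not tested. With median scaling the counts were 9 and 10 for pore-forming genes (median 0.09) and 1 and 9 for auxiliary genes (median -0.18). That scaling called 14% of all genes higher and 34% lower. With IP and input normalized apart the counts were 18 and 4 (0.36), and 3 and 3 (0.04), against 23.2% and 18% of all genes.

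**Figure D1:**
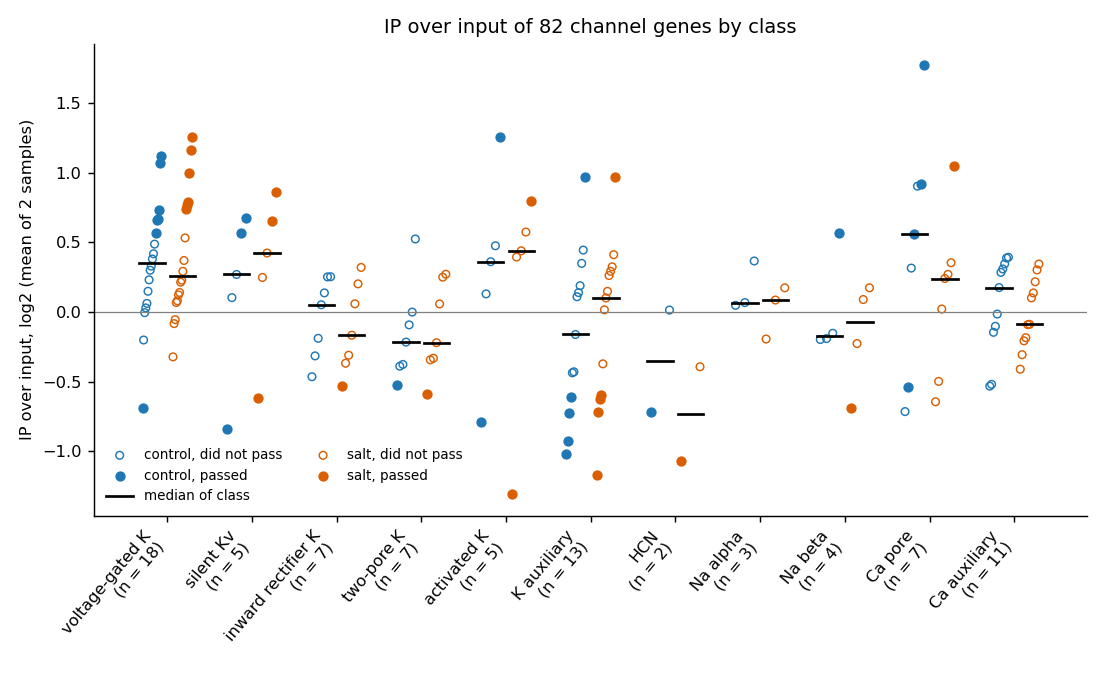
IP over input (log2, mean of the 2 samples of a group) of the 82 tested channel genes by class, control in blue and salt in orange, with filled points for genes at an adjusted p under 0.05 and a black line at each class median. Voltage-gated potassium and pore-forming calcium channel genes have their control medians at 0.35 and 0.56, and potassium auxiliary genes at -0.16.

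Voltage-gated potassium channel genes are the largest class. Of 18 tested genes 6 were higher and 1 lower in control (33.3% and 5.56%, against 19.4% and 20.9% of all genes), with a median of 0.35. Kcna6, which encodes a Shaker-type Kv1 subunit, had log2 ratios of 0.84 and 1.40 in the control samples and 1.26 and 1.06 in the salt samples. All 4 samples lay above 0, and the control mean was 1.12 ± 0.18 (SE, n = 2, 2.17-fold, adjusted p = 0.00364). A further Kcna6 probe gave 1.17.

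Kcnd3, the gene of the A-type channel Kv4.3, had ratios of 1.04 and 1.11 in control and 1.04 and 1.47 in salt. It was undetected on both control input arrays, so its control ratio is given as at least 1.79-fold (fitted 1.07 ± 0.17, adjusted p = 0.00321). In salt, where 1 input array detected it, the ratio was 1.26 (adjusted p = 0.00263). Kcnh2, the gene of the ERG1 channel, had 1.04 and 0.43 in control (mean 0.74, adjusted p = 0.0182) and 0.44 and 0.62 in salt, where it did not pass (0.0589). A further Kcnh2 probe, detected on every IP array and 1 input array, was higher in control by at least 1.41-fold (adjusted p = 0.0172) and was also higher in salt (0.95, 0.0171), so the salt call of Kcnh2 depends on the probe.

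Kcna2, the gene of the delayed rectifier Kv1.2, was bright on every array. Its deposited intensities were 1499.1 and 1147.3 in the control IPs and 1148.2 and 704.5 in the control inputs. The salt IPs read 1664.7 and 1546.9 and the salt inputs 787.1 and 959.7. Every IP was thus brighter than the input of the same sample, with normalized log2 ratios of 0.48 and 0.85 in control (mean 0.67 ± 0.18, adjusted p = 0.023) and 1.22 and 0.78 in salt (mean 1.00, adjusted p = 0.00622). Kcna2 did not pass in control with median scaling.

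Kcnh7, the gene of the ERG3 channel, was higher in both groups, with 0.61 and 0.72 in control (adjusted p = 0.0338) and 1.16 and 0.42 in salt (0.0197). With no filter on dim probes it did not pass in control. Kcna5, which encodes Kv1.5, was the 1 gene of this class that was lower. Its ratio was -0.62 and -0.75 in control (-0.69 ± 0.15, adjusted p = 0.0108) and -0.35 and -0.30 in salt, which did not pass. Its probe was detected on only 1 control IP array. Kcna5 did not pass in control with the deposited ratios or unpaired arrays.

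The remaining voltage-gated genes did not pass in control. They included Kcnq3 (0.49), Kcnc1 (0.30), a fast-spiking Kv3 gene, Kcnd2 (0.03), the gene of Kv4.2, and Kcna4 (-0.20), the gene of the A-type channel Kv1.4.

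Silent Kv genes encode subunits that do not form channels alone and modify other Kv channels. Of 5 tested genes, Kcnf1 and Kcns3 were higher and Kcnv1 was lower (40% and 20%, against 19.4% and 20.9% of all genes). Kcnf1 had ratios of 0.58 and 0.78 in control (0.68 ± 0.16, adjusted p = 0.012) and 0.63 and 0.68 in salt (0.65, adjusted p = 0.0153), so that all 4 samples lay in a narrow range. It did not pass in either group with median scaling. Kcnv1 had -0.59 and -1.09 in control (-0.84 ± 0.19, adjusted p = 0.0107) and -0.80 and -0.44 in salt (-0.62, adjusted p = 0.0346). Its control call was lost with unpaired arrays. Its salt call was made in 5 of 10 alternatives with all samples and lost with no background correction, IP and input apart, no filter, the deposited ratios and unpaired arrays. It was made in 1 of the 4 fits that leave out a sample, and without salt replicate 1 the value was -0.44 (adjusted p = 0.158).

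Kcns3 was undetected on all 4 input arrays, so its ratio is bounded at 1.00-fold or more in control and 1.01-fold or more in salt (fitted 0.57 and 0.86). It met the filter through IP arrays alone, which favours a ratio above 0. Its control call was lost with no background correction, the deposited ratios and unpaired arrays. Kcng4 (0.27) and Kcns2 (0.10) did not pass. Kcns2 was detected on both IP arrays and neither input array of each group.

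Of the 5 calcium- or sodium-activated potassium channel genes tested, Kcnn1 was higher and Kcnu1 lower. Each is 20% of the class, against 19.4% higher and 20.9% lower over all genes. Kcnn1 encodes SK1, a small-conductance channel opened by calcium that contributes to the afterhyperpolarisation. Its deposited intensities were 310.9 and 237.5 in the control IPs against 166.7 and 148.5 in the control inputs. In salt they were 253.4 and 216.3 in the IPs against 175.1 and 151.0 in the inputs. All 4 IPs were brighter than all 4 inputs. The Kcnn1 probe was detected on only 1 control input and 1 salt input array, so its input levels lie near the detection limit. The log2 ratios were 1.40 and 1.12 in control (1.26 ± 0.16, 2.39-fold, adjusted p = 0.00176) and 0.69 and 0.90 in salt (0.80, 1.74-fold, adjusted p = 0.00903).

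Kcnu1, the gene of the Slo3 channel known from sperm, was undetected on every IP array, and its ratio was at least 1.34-fold lower in control (adjusted p = 0.029) and at least 1.55-fold lower in salt (0.00553). Its inputs read 162.2 and 158.7 in control and 183.7 and 162.1 in salt. It met the filter through input arrays alone, which favours a ratio under 0. The control call was lost with no background correction, IP and input apart, no filter and the deposited ratios. Kcnn2 (0.48), Kcnn3 (0.13) and Kcnma1 (0.36), the genes of the SK2, SK3 and BK channels, did not pass in control. All 4 Kcnma1 samples lay close together, at 0.31 and 0.41 in control and 0.36 and 0.42 in salt. With IP and input normalized apart 3 genes of this class were higher in control, against 23.2% of all genes.

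**Figure D2:**
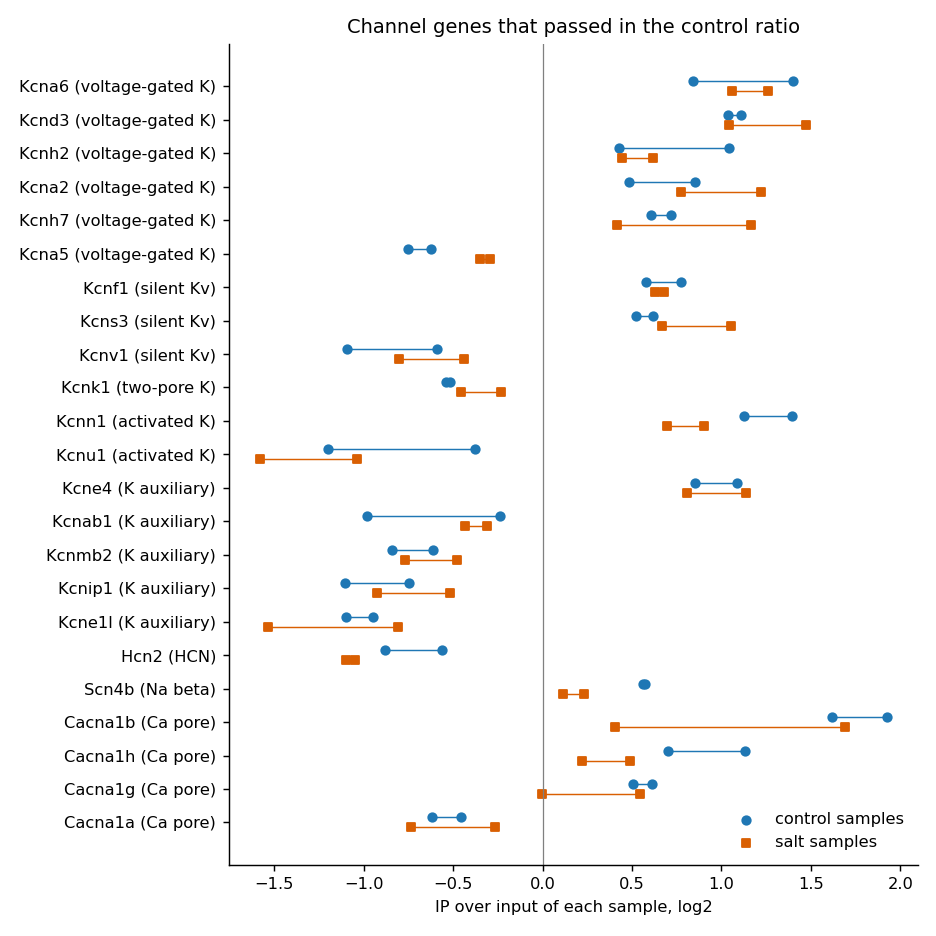
Log2 IP over input of each sample for channel genes at an adjusted p under 0.05 in control, grouped by class, with control samples as blue circles and salt samples as orange squares and a line joining the 2 samples of a group. Cacna1b lies at 1.93 and 1.62 in control and at 1.69 and 0.40 in salt, and Hcn2 lies below 0 in all 4 samples.

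Inward rectifier genes had control ratios from -0.47 to 0.25, with a median of 0.05. None of 7 passed in limma in control (1 at an unadjusted p under 0.05), against 19.4% higher and 20.9% lower over all genes. In salt the class median was -0.17. Kcnj16, the gene of a glial and epithelial Kir5.1 subunit, had 0.27 and -0.17 in control and -0.08 and -0.66 in salt. Kcnj6, the gene of the G protein-gated subunit GIRK2, had -0.70 and -0.23 in control and -0.42 and -0.65 in salt, and only salt passed (-0.53, adjusted p = 0.0474). A further Kcnj6 probe, detected on all 8 arrays, was lower in control (-1.14, adjusted p = 0.00241) and in salt (-1.02, 0.00424). The salt call of the brightest probe was lost with IP and input apart, no filter and the deposited ratios. Kcnj10 and Kcnj13 were not analysed here.

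The leak channels of the KCNK family hold the resting potential. Kcnk1, the gene of TWIK1, was the 1 of 7 that was lower in control (14.3%, against 20.9% of all genes). Its IPs read 966.3 and 841.4 and its inputs 1379.9 and 1237.1 in control, a log2 ratio of -0.52 and -0.54 (-0.53 ± 0.16, adjusted p = 0.0307). In salt the ratios were -0.46 and -0.23 and did not pass. Kcnk2, the gene of the mechanosensitive TREK1 channel, had -0.40 and -0.38 in control and -0.83 and -0.34 in salt (-0.59, adjusted p = 0.0332). A dimmer Kcnk2 probe was at 0.31 in control and 0.03 in salt, and the salt call was lost with the mean of all probes and with no filter.

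Potassium auxiliary genes had 1 higher and 4 lower of 13 in control (7.69% and 30.8%, against 19.4% and 20.9% of all genes). Kcne4, the gene of a single-pass membrane subunit that inhibits some Kv1 channels, was higher in both groups to the same degree. Its ratios were 0.85 and 1.08 in control (0.97 ± 0.17, 1.96-fold, adjusted p = 0.00429) and 0.81 and 1.14 in salt (0.97, 1.96-fold, adjusted p = 0.0051). Kcne1l, the gene of the related subunit KCNE5, had -0.95 and -1.10 in control (-1.02 ± 0.20, adjusted p = 0.00684) and -1.53 and -0.81 in salt (-1.17, 0.00504). The groups of these KCNE genes overlapped.

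Kcnip1 encodes a calcium-binding KChIP subunit of Kv4 channels. It read 625.6 and 621.7 in the control IPs and 1239.8 and 1001.9 in the control inputs, and 701.9 and 678.6 against 1293.8 and 918.0 in salt. Every input was brighter than every IP, with a ratio of -0.92 ± 0.18 in control (adjusted p = 0.00654) and -0.72 in salt (0.0178). A further Kcnip1 probe gave -1.22 in control. Kcnip4 had -0.43 in both control samples, which did not pass, and -0.56 and -0.64 in salt (-0.60, adjusted p = 0.0192), a call lost with IP and input apart and with the deposited ratios. Kcnip2 (0.14) and Kcnip3 (0.44) lay above 0 and did not pass.

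Kcnmb2, the gene of a BK channel beta subunit, was lower at -0.62 and -0.84 in control (-0.73, adjusted p = 0.0115) and -0.77 and -0.48 in salt (-0.62, 0.0219). A further Kcnmb2 probe did not pass, at -0.23 in control and -0.31 in salt. With the mean of all probes both calls were lost, and the salt call also with IP and input apart and with the deposited ratios. Kcnab1, the gene of a Kv1 beta subunit, was at -0.24 and -0.98 in control (-0.61, adjusted p = 0.0447), with the samples far apart, and at -0.31 and -0.44 in salt, which did not pass. Its other probes were at -0.46 (adjusted p = 0.0447) and -0.28 (0.17) in control, and the control call was lost with IP and input apart, no filter and unpaired arrays. Kcnmb4 (-0.16), the neuronal BK beta subunit gene, and Kcne2 (-0.44) did not pass. The class median was -0.16 in control and 0.10 in salt in the same fit, and with median scaling it was -0.36 and -0.20.

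Of the pacemaker genes, Hcn2 and Hcn3 were tested, and Hcn4 was not analysed here. Hcn2 read 195.9 and 172.8 in the control IPs and 234.1 and 233.9 in the control inputs, and in salt 190.3 and 180.5 against 280.4 and 258.5. Its log2 ratios were -0.56 and -0.88 in control (-0.72 ± 0.16, adjusted p = 0.011) and -1.05 and -1.10 in salt (-1.07, adjusted p = 0.00341). All IPs lay under all inputs. Hcn3 was at 0.06 and -0.03 in control and -0.40 and -0.39 in salt and did not pass in either. Further Hcn3 probes had means of -0.09 and 0.81 in control and 0.17 and 0.50 in salt, and none passed. The sign in salt thus depended on the probe.

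None of the 3 tested sodium channel alpha genes passed in limma in either group, with 1 at an unadjusted p under 0.05 in control and 0 in salt. Scn1a, the gene of Nav1.1, had 0.36 and 0.37 in control (0.37, adjusted p = 0.0881) and 0.10 and 0.07 in salt. Scn8a, the gene of Nav1.6 at axon initial segments, had 0.04 and 0.05 in control and -0.54 and 0.15 in salt. Scn1a passed as higher in control with the deposited ratios or with IP and input normalized apart. Scn2a, Scn3a and Scn9a were not analysed here.

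Among the sodium channel beta genes, Scn4b was higher in control. It had 0.57 and 0.56 in control (0.57 ± 0.15, adjusted p = 0.0214) and 0.12 and 0.23 in salt, which did not pass, and it did not pass in control with median scaling or unpaired arrays. Scn2b (-0.20) and Scn3b (-0.15) did not pass in control.

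The pore-forming calcium channel genes had the highest class median in control, at 0.56. Of 7 genes 3 were higher and 1 lower (42.9% and 14.3%, against 19.4% and 20.9% of all genes). Cacna1b encodes the pore of the N-type channel, which drives transmitter release at presynaptic terminals. Its intensities were 991.8 and 867.7 in the control IPs against 318.9 and 343.9 in the control inputs, and 827.9 and 591.3 in the salt IPs against 297.3 and 450.4 in the salt inputs. The IPs were brighter than the inputs in all 4 samples. The log2 ratio was 1.93 and 1.62 in control (1.77 ± 0.28, 3.41-fold, adjusted p = 0.00317), and it was 1.69 and 0.40 in salt (1.05, 2.07-fold, 0.023). Without salt replicate 1 the salt ratio of Cacna1b was 0.40 and did not pass, and the salt call was also lost with no filter.

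The T-type genes Cacna1h and Cacna1g, whose low-threshold channels support burst firing, were higher in control. Cacna1h had 1.13 and 0.70 (0.92 ± 0.18, 1.89-fold, adjusted p = 0.00626) and Cacna1g 0.51 and 0.61 (0.56 ± 0.18, adjusted p = 0.0407). In salt they had 0.49 and 0.22, and 0.00 and 0.54, and did not pass. The other Cacna1g probes did not pass in control (0.32 and 0.64, adjusted p = 0.156 and 0.0795). The Cacna1g call was made in 6 of 10 alternatives with all samples and lost with median scaling, no filter, the mean of all probes and unpaired arrays. Cacna1a, the P/Q-type pore gene, was at -0.62 and -0.45 in control (-0.54, adjusted p = 0.0422). Its probe was detected on only 1 control IP and 1 control input array, and that call was made in 3 of 9 such alternatives, being lost with no background correction, normexp without negative controls, IP and input apart, no filter, the deposited ratios and unpaired arrays.

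The L-type genes Cacna1c and Cacna1d did not pass by their brightest probes. For Cacna1c that probe was at 0.57 and 0.06 in control (0.31, adjusted p = 0.19). Its 3 other tested probes were detected on the 4 IP arrays and no input array, and were higher by at least 1.65-fold, 1.37-fold and 1.43-fold in control (adjusted p = 0.00389, 0.00302 and 0.00277). The Cacna1c probes thus disagreed in size, and these 3 met the filter through IP arrays alone, which favours a ratio above 0. Cacna1d was undetected on every input array, with fitted ratios of 0.88 and 0.93 in control and 1.17 and -0.69 in salt. Its salt mean of 0.24 became -0.69 without salt replicate 1 and then passed as lower (adjusted p = 0.0233).

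None of the 11 tested calcium channel auxiliary genes passed in limma in either group, with 1 higher and 2 lower at an unadjusted p under 0.05 in control and 1 lower in salt. Cacna2d1 was at 0.31 and Cacna2d3 at 0.39 in control, both of the alpha2delta family, which brings channels to the membrane. Cacnb2, a cytoplasmic beta subunit gene, was at 0.39 and Cacng8, of the gamma family, at 0.34. Cacnb4 was at -0.15. Of the gamma or TARP genes, Cacng2, the gene of the AMPA receptor partner stargazin, was at -0.02, and Cacng3 (-0.52) and Cacng7 (-0.53) were the lowest.

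In salt samples, 11 channel genes were higher in the IP than in the input and 10 lower, 13.4% and 12.2% of the 82. Over all genes 18.2% were higher and 18.6% lower. The median was 0.11 over channel genes, 0.08 and 0.15 in the salt samples singly, and -0.04 over all genes. With median scaling the split was 10 higher and 15 lower (median -0.08), against 12.8% and 34.6% of all genes. With IP and input normalized apart it was 19 and 5 (0.21), against 22.2% and 16.1%, and with the deposited ratios 18 and 6, against 22.7% and 19.7%. Without control replicate 1, and likewise without control replicate 2, 11 were higher and 5 lower (14.4% and 13.5% of all genes), and the calls lost included those of Kcnip4, Kcnj6, Kcnk2 and Kcnv1. Without salt replicate 1, 12 were higher and 8 lower (15.6% and 13.9% of all genes), of which 9 and 5 were shared with the fit of all samples. The calls lost then included those of Cacna1b, Kcnh7, Kcnip1, Kcnk2, Kcnmb2 and Kcnv1. Without salt replicate 2, 16 were higher and 15 lower (19.6% and 21.6% of all genes), with 11 and 9 shared and the call of Kcnj6 lost. Of the 21 salt calls, 11 were also made under every alternative that kept all samples and tested the gene.

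Of the 14 genes higher in control 9 were also called in salt (64.3%, and 81.8% of the 11 higher in salt), and of the 10 lower in control 6 (60.0% of either list). Among the genes called in salt alone were Kcnd1, a Kv4.1 gene (0.77 and 0.71, mean 0.74, adjusted p = 0.0224, undetected on both salt inputs, at least 1.42-fold, and lost with no filter), which was higher, and Kcnip4, Kcnj6 and Kcnk2, which were lower. A call in 1 group and not in the other is not a difference between groups, and the test of that difference follows.

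The ratio of salt against control asked whether the osmotic load altered the recovery of channel mRNAs with phosphorylated ribosomes. None of the 82 channel genes passed in limma, with 2 higher and 0 lower at an unadjusted p under 0.05. Over all genes 0% were called higher and 0% lower, with 138 and 123 at an unadjusted p under 0.05. Both salt samples lay above both control samples for 10 channel genes and below for 13, 12.2% and 15.9% of 82, against 13.5% and 13.6% of all genes. The median difference was -0.01 over channel genes and 0.01 over all genes.

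Among the 5 channel genes with the smallest unadjusted p were Kcne2, Kcna4, Cacna1h and Kcnn1, none of which passed (adjusted p = 1 for each). Kcna4, the Kv1.4 gene, went from -0.04 and -0.36 in control to 0.30 and 0.44 in salt, a difference of 0.57 ± 0.23. Its normalized log2 IP levels were 7.93 and 7.61 in control and 7.97 and 8.24 in salt, while its inputs were 7.96 and 7.98 in control and 7.66 and 7.81 in salt. The salt IPs lay above the control IPs and the salt inputs below the control inputs. Kcne2, known as an auxiliary subunit gene of the choroid plexus, differed by 0.59 ± 0.22, but was detected on 1 control IP and 1 control input array and no salt array. The lower genes Cacna1h (-0.56 ± 0.25) and Kcnn1 (-0.46 ± 0.23) kept ratios above 0 in each group mean. Without salt replicate 1 a single gene passed, Cacna1d at -1.59 (adjusted p = 0.0352), which was undetected on every input array.

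The level in the IP, salt against control, was compared over all 8 arrays in a single fit. None of the 82 genes passed in limma (3 higher and 1 lower at an unadjusted p under 0.05), and over all genes 0.167% were called higher and 0% lower. Both salt IPs lay above both control IPs for 16 channel genes and below for 12 (19.5% and 14.6%), against 15.5% and 15.5% of all genes. In the input none of the 82 passed either (2 higher and 0 lower at an unadjusted p under 0.05), and over all genes 0.0196% were called higher and 0% lower. Both salt inputs lay above both control inputs for 15 channel genes and below for 5 (18.3% and 6.1%), against 13.5% and 11.9% of all genes.

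**Figure D3:**
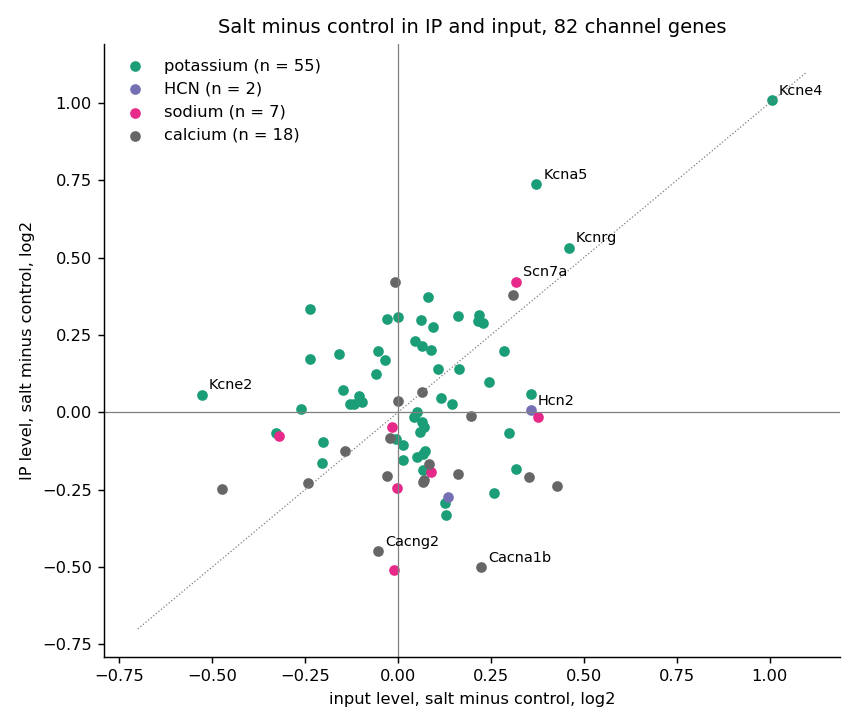
Salt minus control of the log2 level in the IP (vertical) against that in the input (horizontal) for the 82 tested channel genes, coloured by ion, with a dotted line of equal difference. Kcne4 stands at 1.00 in the input and 1.01 in the IP, beyond all other channel genes, and no point passed the threshold.

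Kcne4 had the largest difference of all 82 channel genes on both kinds of array. Its deposited intensities were 157.8 and 147.1 in the control inputs and 215.7 and 207.8 in the salt inputs. In the IPs they were 221.9 and 229.6 in control and 348.0 and 379.1 in salt. The groups did not overlap in either kind of array, and 1 of the 2 control inputs did not detect the probe. The normalized difference was 1.01 ± 0.18 in the IP (2.01-fold, adjusted p = 0.167) and 1.00 ± 0.18 in the input (adjusted p = 0.413), and the difference of the ratio was 0.00 ± 0.24. The IP difference ranged from 0.69 to 1.19 and the input difference from 0.53 to 1.07 over the alternatives. The lowest adjusted p among them was 0.0984 in the IP and 0.271 in the input.

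Kcnrg, the gene of a cytoplasmic protein that lowers Kv channel assembly, had the next smallest unadjusted p on both kinds of array. It was detected on 1 control IP, 2 salt IPs, 1 salt input and no control input array. Kcnrg thus met the filter through the salt arrays, which favours a higher value there. Its IPs read 139.8 and 140.2 in control and 166.5 and 172.9 in salt, and the difference was 0.53 ± 0.17 (adjusted p = 0.791). Its input difference is bounded at 1.00-fold or more (fitted 0.46, adjusted p = 1). The 250 bases before the start of these genes are shown because they are the channel genes with the smallest unadjusted p in both IP and input. They are RefSeq's, on the plus strand of GRCm38.p6, at chr1:78816661-78816910 for Kcne4 and chr14:61607207-61607456 for Kcnrg. Capitals mark matches to TGACG, the core of the cAMP response element, and to TGGAAA, the core of the element of the tonicity factor NFAT5, on either strand.

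Kcne4: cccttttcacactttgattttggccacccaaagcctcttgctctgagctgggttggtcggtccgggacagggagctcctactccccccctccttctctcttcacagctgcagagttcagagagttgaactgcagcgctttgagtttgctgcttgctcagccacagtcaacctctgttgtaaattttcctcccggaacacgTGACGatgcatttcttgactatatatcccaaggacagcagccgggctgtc
Kcnrg: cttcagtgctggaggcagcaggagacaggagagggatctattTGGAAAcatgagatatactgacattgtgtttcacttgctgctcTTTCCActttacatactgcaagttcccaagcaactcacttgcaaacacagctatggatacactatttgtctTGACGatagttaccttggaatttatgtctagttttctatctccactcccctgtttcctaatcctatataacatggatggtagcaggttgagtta

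TGACG begins 50 bases before the Kcne4 start and 94 before the Kcnrg start, and TGGAAA matches lie 208 and 165 bases before the Kcnrg start. TGACG was found in 17.77% of 32851 promoters of this length and in 15.38% of 91 promoters of 62 channel genes, and TGGAAA in 18.58% and 18.68%. The full element TGACGTCA, which contains TGACG, was in 1.546% of all and in 0% of channel promoters, and the AP-1 letters TGANTCA were in 6.749% and 4.396%. The GC box GGGCGG was in 32.74% of all and 45.05% of channel promoters, and the TATA letters TATAAA in 12.37% and 2.198%. These are letter matches and not sites, and no test was made of them.

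Kcna5 had the next largest IP difference, 0.74 ± 0.27 (adjusted p = 0.823), with normalized levels of 5.92 and 5.59 in control and 6.15 and 6.84 in salt. Its probe was detected on only 1 control IP array, so the control level lies near the detection limit. Salt replicate 2 lay well above the other IPs, and the same sample was also highest in the input at 7.13, against 6.50 in salt replicate 1 and 6.54 and 6.35 in control. Scn7a encodes Nax, a sodium-level sensor of the circumventricular organs. It was detected on both salt IP arrays and on no other array, with intensities of 148.7 and 175.1 against 138.7 and 138.6 in the control IPs. Scn7a thus met the filter through the salt IPs alone, which favours a higher value there. The IP level is bounded at 1.26-fold or more in salt, and the fitted difference of 0.42 ± 0.23 did not pass in limma (adjusted p = 0.962). Neither value can be read as a rise.

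**Figure D4:**
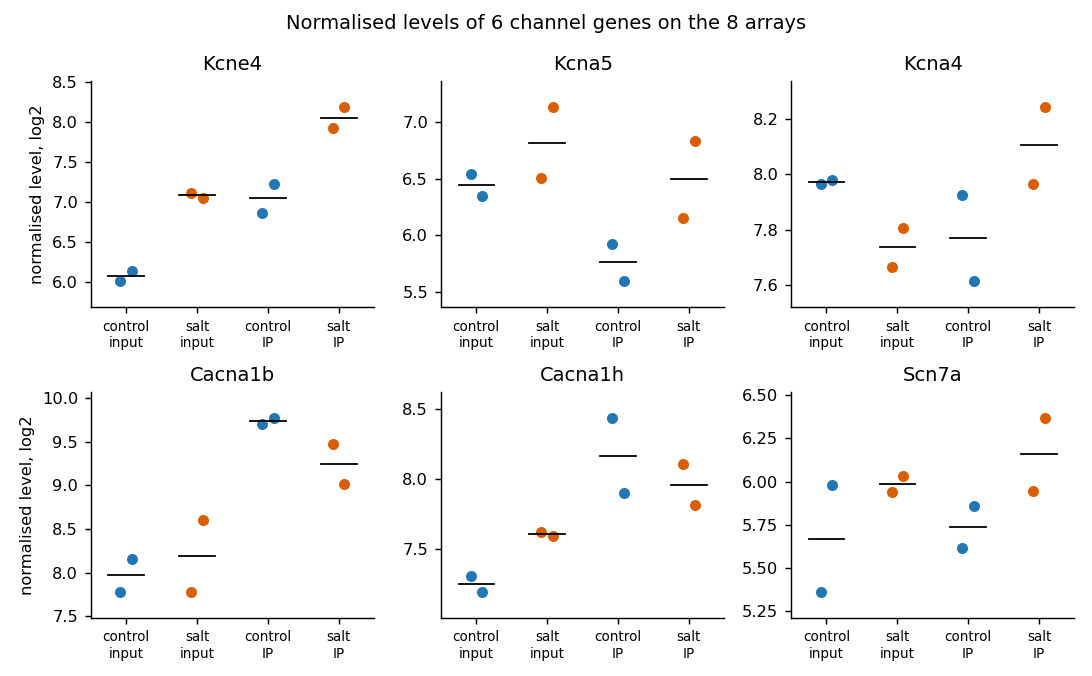
Normalized log2 levels of Kcne4, Kcna5, Kcna4, Cacna1b, Cacna1h and Scn7a on the 8 arrays (vertical axes differ and do not start at 0), each point an array and each line the mean of 2. Kcne4 is higher in salt in input and IP, and Cacna1b is higher in the IP than in the input in both groups.

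On the lower side, Cacng2 differed by -0.45 ± 0.16 in the IP and did not pass (adjusted p = 0.822). Cacng2 read 224.7 and 178.6 in the control IPs and 169.3 and 170.6 in the salt IPs. Hcn2, a pacemaker gene, differed in the input by 0.36 (adjusted p = 1), with 234.1 and 233.9 in control and 280.4 and 258.5 in salt, and by 0.01 in the IP. Kcne2, also among the channel genes with the smallest unadjusted p in the input, differed there by -0.53, was undetected on both salt inputs and did not pass (adjusted p = 1).

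Calcium channel genes had a median IP difference of -0.20 over 18 genes, with 4 above 0. Both salt IPs lay below both control IPs for 7 of them and above for 2, against 15.5% and 15.5% of all genes, and 0 passed in limma (1 lower at an unadjusted p under 0.05). The median stayed between -0.20 and -0.12 over 5 ways of background correction and scaling. In the input the calcium channel median was 0.07. Voltage-gated potassium channel genes had an IP median of 0.18 over 18 genes, with 6 non-overlapping above and 1 below against the same shares of all genes, and 0 passed (1 higher at an unadjusted p under 0.05).

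Gene size was set beside the ratio. Spearman's rho between the span of a gene in the genome and its control ratio was 0.08 over the 82 channel genes (median span 58.0 kb) and 0.33 over 9734 genes with a span (median 25.2 kb). These are descriptions across genes that share arrays. The channel genes had a longer median span than all genes, and a rho nearer 0.

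Partner genes of these channels were read from a fixed list. It holds genes for ankyrins, DPP and FGF-homologous subunits, NALCN and its partners and scaffold proteins. Of 20 tested, 5 were higher and 1 lower in control (25% and 5%), and 7 and 2 in salt (35% and 10%). The medians were 0.11 and 0.18. Over all genes the shares were 19.4% and 20.9% in control and 18.2% and 18.6% in salt. Of 10 tested TRP and other cation channel genes, 3 were higher and 0 lower in control (30% and 0%). Of 11 genes for sodium, potassium and chloride transport 3 were higher and 0 lower in control (27.3% and 0%). None of these genes passed in limma between salt and control in the ratio, the IP or the input. At an unadjusted p under 0.05 there were 1 in the ratio and 2 in the IP, all among the TRP and other cation channel genes, and 0 in the input.

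Markers of cell types were set beside these values. For comparison, 19.4% of all genes were higher and 20.9% lower in control. Of 7 tested neuron markers 1 was higher and 2 lower in control (median -0.43), of 8 astrocyte markers 0 and 0 (1 and 2 at an unadjusted p under 0.05), of 6 oligodendrocyte markers 0 and 2, of 4 microglia markers 0 and 1, of 3 ependymal markers 0 and 1, of 3 choroid plexus markers 0 and 1, of 2 pericyte markers 0 and 1, and of 2 endothelial markers 0 and 0 (0 at an unadjusted p under 0.05). Between salt and control none passed in limma, with 2 microglia markers in the ratio and 2 in the IP at an unadjusted p under 0.05. The summed normalized IP level (linear scale) of the astrocyte markers was 7844.1 and 4609.4 in control and 5261.2 and 7310.6 in salt, and so varied within groups. That of the microglia markers was 484.6 and 518.7 in control and 343.1 and 346.7 in salt, without overlap. Their part in the differences above was not tested.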

How the data were processed

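Per the file headers, the values are linear intensities of each probe on each array. A detection p-value for each intensity was deposited beside it. A ratio of IP to input for every sample is deposited too, which is the plain quotient of those intensities (relative gap at most 1.6e-09) and so has no background correction or scaling; it served as an alternative. The submitters' processing notes name GenomeStudio. The steps before these values are not given in the sources used here.

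Intensities were background-corrected with limma's nec (limma 3.58.1, R 4.3.3; negative controls inferred from the detection p-values, offset 16), quantile-normalized over 8 arrays and taken as log2. The filter kept a probe that reached a detection p below 0.01 on 2 or more arrays. A probe detected on IP arrays alone, or on input arrays alone, enters through that side, which favours a ratio toward it. Of the channel genes 7 were detected on no input array and 2 on no IP array. A gene is read from its probe with the highest mean. The log2 ratios of the 4 samples were fitted with 2 group means and the levels of the 8 arrays with 4, by lmFit and eBayes (2 and 4 residual degrees of freedom), two-sided, Benjamini-Hochberg over 14199 probes. Errors are SE of these fits, and n is 2 per group. "Passed" means an adjusted p under 0.05. Where no array of one side detected a probe, a bound is given ("at least"). The number of arrays limits the precision. The scripts were tested on simulated data.

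Members, lists and tests were chosen with earlier results of these data known. Named genes are, per class, up to 4 higher and 4 lower in control, 5 per comparison of salt with control, and a list of well-known channel genes; Kcnh7, Kcnd1, Kcnk2, Kcnj6, Kcnk3, Kcng4, Kcns2, Cacna2d3, Cacnb2, Cacng3, Cacng7 and Cacng8 were named after their values were seen, as were the neuropeptide genes and the gene span. Of 25697 probes, 20736 carried a current symbol and 3841 were renamed from an older one; all 184 channel probes carried current symbols. Protein sequences were not used here, and some member genes are counted but not reported here by name. Replicate numbers were checked for pairing by the deviation of a sample from the mean of its group, and not by its profile. Salt and control deviations of the same number correlated at 0.01 (ratio), 0.14 (IP) and -0.23 (input). Samples of the same number were not treated as pairs.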

Additional observations from a re-analysis of the deposited data

Results flagged for a closer look

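For 3 of the 82 channel genes the control samples lay on one side of 0 in the log2 ratio of IP to input and the salt samples on the other. The share of all genes that crossed 0 in this way was not counted. Both salt ratios lay above both control ratios, as in these 3, for 12.2% of channel genes and 13.5% of all genes. For Kcna4 the difference, salt minus control, was 0.57, with -0.04 and -0.36 in control and 0.30 and 0.44 in salt. For Kcne2 it was 0.59, with -0.48 and -0.40 in control and 0.27 and 0.03 in salt, near or under the detection limit. For Kcnk3, the gene of the TASK1 leak channel, it was 0.15, with -0.02 and -0.17 in control and 0.01 and 0.10 in salt. The test of the difference itself (limma) gave an adjusted p of 1 for each.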

How the results depend on the processing

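No channel gene passed between salt and control in the ratio, the IP or the input under any alternative, except Cacna1d in the ratio without salt replicate 1, so counts of lower genes ranged from 0 to 1 when each sample was left out. With the replicate block, and with a crossed replicate block chosen after seeing the data, the count was 0 in all 3 comparisons. In control, leaving out each sample gave 3 to 25 higher and 0 to 18 lower genes. There were 19 lower with median scaling (34% of all genes) and 6 lower with IP and input unpaired (18.1% of all genes). With probes detected on all 8 arrays, which 57 channel genes had, 9 were higher, against 19.2% of 8308 genes. The channel median was 0.075 with no background correction, 0.11 with normexp, 0.023 with median scaling, 0.27 with IP and input apart, 0.046 with no filter on dim probes and 0.090 with the deposited ratios. In salt, 19 were higher and 5 lower with IP and input apart, against 22.2% and 16.1% of all genes. With the deposited ratios the counts were 18 and 6, against 22.7% and 19.7%. With probes detected on all 8 arrays 6 were higher, against 18.3% of 8308 genes. With no filter, which tests all 119 channel genes, 6 were lower, against 9% of 17916 genes. Leaving out each sample gave 5 to 15 lower. The salt median was -0.084 with median scaling and 0.21 with IP and input apart. The median difference of the ratio was -0.052 with median scaling, -0.050 for probes on all arrays, 0.036 with the deposited ratios, and -0.070 to 0.059 with a sample left out. The median IP difference was 0.026 with median scaling. Of the values of single named genes, 2703 kept their side of the threshold, 93 lost a call, 72 gained one, and 1 reversed: the salt ratio of Cacna1d, which ran from -0.69 without salt replicate 1 to 1.17 without salt replicate 2. The causes were not tested.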
